A study of Homo sapiens with 9 samples.

Results

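The 9 genes described here carry the interferon signal from the cell surface to the nucleus or restrain it: the receptor chain IFNAR1, the kinase JAK1, the transcription factors STAT2, IRF9, IRF1, IRF3 and IRF7, and the feedback inhibitors SOCS1 and USP18. They were chosen by gene symbol from the 63856 genes measured by RNA-seq, and the values of all samples were taken from the same row of both tables. All 9 were among the 18452 genes with enough counts to be tested. Type I interferons bind a receptor made of IFNAR1 and IFNAR2, whose kinases JAK1 and TYK2 phosphorylate STAT proteins, among them STAT2, which joins IRF9 in the complex ISGF3, which binds interferon-stimulated response elements in promoters. IRF3 and IRF7 act earlier, as the factors that viral RNA or DNA sensors switch on to transcribe the interferon genes, whereas IRF1 is a target and activator in the response to interferon gamma. USP18 displaces JAK1 from IFNAR2 and SOCS1 blocks JAK kinases, so that both limit the response.

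The samples were TCam-2 cells, a human testicular seminoma line, in 3 groups of 3 biological replicates. WT were the untransfected cells. NC were cells transfected with a px335_G2P vector holding nonspecific guide RNAs, and the ESX1 group received guide RNAs specific to the homeobox gene ESX1 together with dCas9-VPR, a transcription activator without nuclease activity that doxycycline induces. Transfected cells of both groups were selected with an antibiotic and treated with doxycycline. Whether NC cells also received dCas9-VPR was not stated. The difference between NC and WT therefore holds transfection, vector, selection, doxycycline, guides and possibly dCas9-VPR together, which cannot be told apart. Not all transfected cells carried the vector's fluorescent signal, and in such bulk libraries a change in the share of cells that express a gene cannot be told apart from a change in RNA per cell.

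Library totals ran from 5212804 to 10644408 counts, the lowest in ESX1 replicate 3. The targeted gene ESX1 had 33, 28 and 30 counts in WT, 35, 27 and 34 in NC and 562, 554 and 170 in the ESX1 group, as the labels of all 9 libraries ask. The seminoma markers POU5F1, NANOG, TFAP2C, SOX17, KIT, PRDM1 and PRAME were detected in every library, with a summed level of 2270 to 2600 TPM (counts scaled for exon length and library total) in WT, 2150 to 2300 in NC and 1170 to 1310 in the ESX1 group. Of the leukocyte markers, PTPRC and CD68 had at most 1 count in any library and CD3E had 0, and all 5 markers together reached 0.24 to 2.81 TPM. The fibroblast markers DCN, LUM and COL1A1 summed to 0.531 to 3.9 TPM in WT, 4.5 to 5.82 in NC and 2.83 to 7.13 in the ESX1 group, nearly all of it COL1A1 in the transfected groups, with DCN at 5 counts or fewer. Of the 7 seminoma markers 5 were lower in NC than in WT at an adjusted p below 0.05, where 10.3% of all tested genes were lower. KIT, 3.88-fold lower, and NANOG, 1.71-fold lower, were among these 5. In the ESX1 group 6 of the 7 were lower than in WT, where 15.8% of all tested genes were. Against NC 4 were lower in that group, where 2.37% of all tested genes were. SOX2, a marker of embryonal carcinoma, was 2.35-fold higher in NC than in WT (edgeR adjusted p = 0.0222). DNMT3B, the other such marker, went the other way. Its mean was 74.8 CPM (normalized counts, explained below) in WT, 59.1 in NC and 52.9 in the ESX1 group. Of the Sertoli cell markers, SOX9 was 3.55-fold higher in the ESX1 group than in NC (edgeR adjusted p = 0.012). It had 20, 16 and 27 counts in WT, 14, 6 and 16 in NC and 57, 33 and 23 in the ESX1 group, and neither transfected group passed against WT. AMH overlapped between NC and the ESX1 group, and FSHR had 1 count in total. Mitochondrial genes took 17.02 to 18.33% of counts in WT, 14.45 to 15.25% in NC and 19.2 to 19.87% in the ESX1 group, with no overlap between groups. The part of these differences in the results below was not tested.

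ESX1 replicate 2 stood apart from the other libraries of its group in interferon genes. The normalized CPM (read counts made comparable between libraries of different size) summed over a list of 40 interferon-stimulated genes were 184, 192 and 222 in WT and 896, 876 and 838 in NC. In the ESX1 group they were 191, 842 and 168, so the sum of replicate 2 lay at the level of NC and those of replicates 1 and 3 at the level of WT. The sum hides single genes of the list that moved either way in replicates 1 and 3. OAS3 had 6.79 and 4.43 CPM in these, against 1.15 to 2.07 in WT, and IFITM3 had 22.7 and 19.4 CPM, against 43.9 to 61.4 in WT. MX1, an antiviral GTPase, had 71, 2304 and 55 counts in the 3 ESX1 libraries, against 40, 53 and 132 in WT and 2546, 2421 and 2496 in NC. The log2 differences of the members that involve the ESX1 group are therefore given with and without that library, whereas levels, ranges and likeness include it.

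Reference promoter sequence was read for the members before their levels, since ISGF3 and STAT dimers bind short motifs there. RefSeq promoters of GRCh38.p14 (250 bases before to 50 after a start site) were found for 6 of the 9 members, STAT2, IRF9, IRF1, IFNAR1, JAK1 and SOCS1. The core of the interferon-stimulated response element, GAAANNGAAA, was searched on both strands and stood in 3.57% of 35116 promoters and in those of 25 of 32 matched interferon-stimulated genes. Among these 6 members it was in SOCS1 only, 113 to 104 bases before the start site. IRF3, IRF7 and USP18 had no promoter entry and were not searched, so whether they hold either motif is not known here. The palindromic gamma-activated site TTCNNNGAA, bound by STAT dimers, stood in 7.66% of promoters and in those of IRF9 and IRF1. The 3 stretches are shown because they are the only matches to either motif among the 6 members. They read 5′ to 3′ on the gene's strand with the motif in capitals.
SOCS1, chr16:11256298-11256327, minus strand: cgccaccgcgGAAAGAGAAAccaaaagtgg
IRF9, chr14:24161192-24161220, plus strand: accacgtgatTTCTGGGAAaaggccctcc
IRF1, chr5:132490879-132490907, minus strand: acagcctgatTTCCCCGAAatgacggcac
The IRF9 stretch overlaps an annotated exon of IRF9, and the other two lie outside the annotated gene. A match describes the letters only, and neither STAT2, IFNAR1 nor JAK1 had either motif in these windows.

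In WT cells the members spanned a wide range of levels, compared per length in TPM. STAT2 was highest at 104 TPM (93.9 to 114 in the 3 samples), followed by JAK1 at 35.9 ± 2.77 (SD, n = 3), IRF3 at 24.9 ± 1.69, SOCS1 at 13.9 ± 0.864 and USP18 at 11.8 ± 0.822. IFNAR1 at 9.49 ± 1.02 TPM and IRF7 at 8.88 ± 0.777 TPM came next and their ranges overlapped. IRF9 at 0.442 ± 0.16 TPM and IRF1 at 0.317 ± 0.324 TPM were far below the rest, also with overlapping ranges, and IRF9 stayed low at 0.858 TPM when only the exon bases it shares with no other gene were used as its length. STAT2 and IRF9 act together in ISGF3, and in WT cells the STAT2 message was thus abundant and that of IRF9 scarce. In NC, IRF7 moved from the 7th place to the 3rd at 46.3 ± 5.06 TPM, where its range overlapped that of JAK1 (50.8 ± 3.9 TPM). STAT2 stayed highest, at 152 ± 7.16 TPM in NC and 95.9 TPM (74.5 to 118) in the ESX1 group, and IRF9 and IRF1 stayed 8th and 9th in all groups. In NC the ranges of IFNAR1 and SOCS1 overlapped, and in the ESX1 group JAK1 was the 2nd at 48.1 ± 2.66 TPM with a range apart from its neighbours, after which IRF3, IRF7, IFNAR1, USP18 and SOCS1 came in this order with the range of each overlapping the next.

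Transfection with nonspecific guides went with higher IRF7, IRF9, USP18 and IFNAR1 messages. The comparison of NC with WT holds transfection, selection, doxycycline and all else that NC cells received together. Of the 9 members 4 were higher in NC at an adjusted p below 0.05, where 6.82% of all tested genes were higher. IRF9 and IRF7 also passed a 2-fold minimum, where 3.12% of tested genes did. No member was lower, where 10.3% of tested genes were lower and 2.15% at least 2-fold so. The CPM of all NC samples exceeded that of all WT samples for 6 members, against 17.6% of tested genes. The median log2 fold change of the members was 0.62, and that of all tested genes was 0.01.

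**Figure D1:**
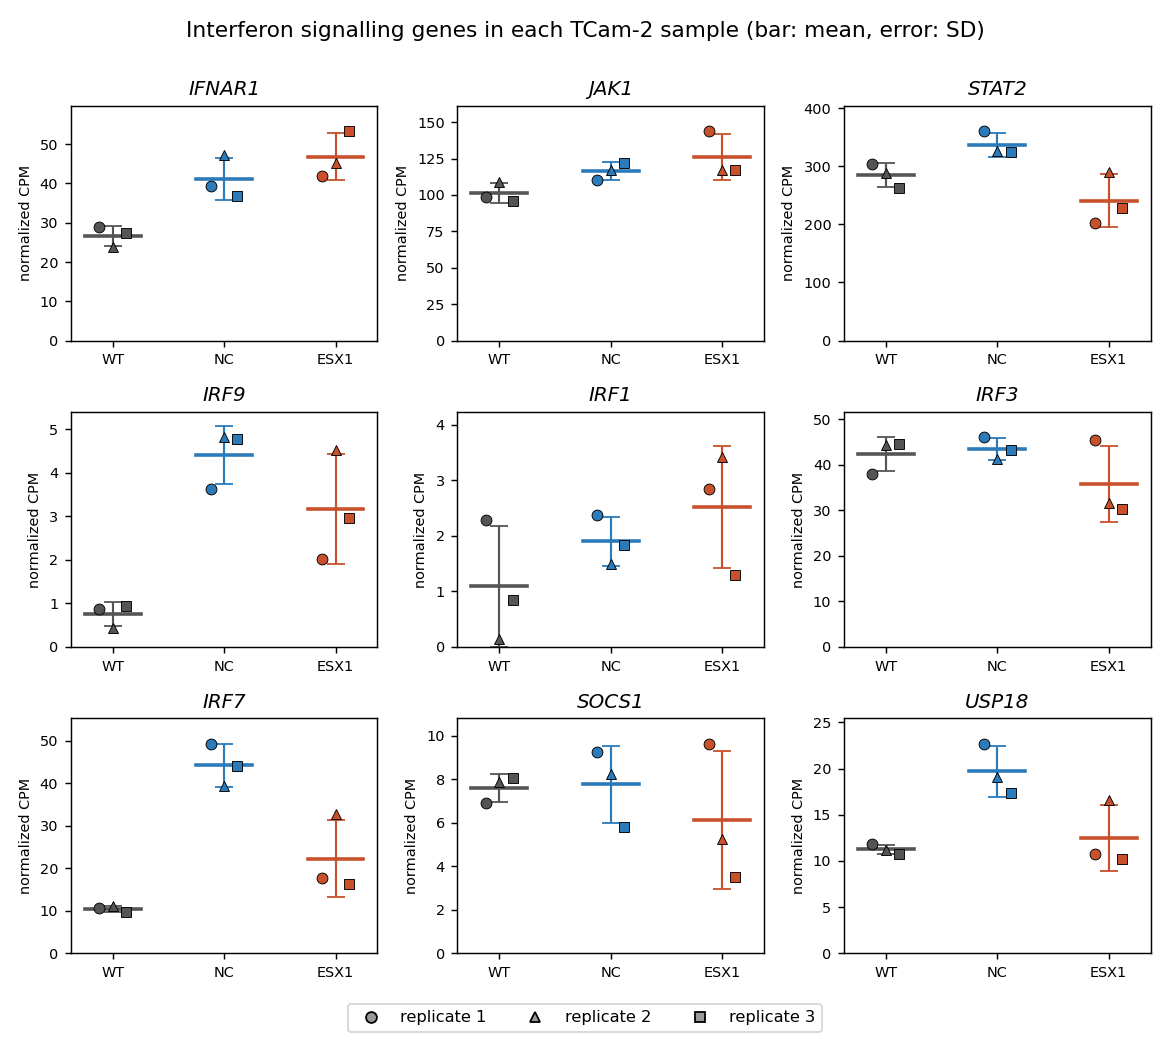
Normalized CPM of the 9 members in each sample (vertical axes, linear from 0) for WT, NC and ESX1, with replicates as circles, triangles and squares, the group mean as a bar and the SD as the error. IRF7 sits between 39.3 and 49.3 in NC and between 9.61 and 11.1 in WT, while IRF3 in NC lies within 41.2 to 46.0 beside 38.0 to 44.6 in WT.

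Among the interferon regulatory factors, IRF7 showed the clearest separation of groups. The gene lies on the minus strand of chr11:612553-615999 (GRCh38). Its level was 10.6, 11.1 and 9.61 CPM in WT, 49.3, 39.3 and 44.0 CPM in NC and 17.6, 32.7 and 16.4 CPM in the ESX1 group. No range overlapped another, NC was highest and ESX1 replicate 2 was the nearest to it. IRF7 was 4.25-fold higher in NC than in WT (log2 2.09, 95% interval 1.61 to 2.56, edgeR adjusted p = 1.75e-05). In the ESX1 group it was 2.16-fold higher than in WT (log2 1.11, SE 0.228, edgeR adjusted p = 0.00146). The latter log2 difference was 0.71 without ESX1 replicate 2 (edgeR adjusted p = 0.00706), no longer 2-fold.

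IRF9, on the plus strand of chr14:24161053-24166565, had the largest fold but few counts. They were 8, 3 and 9 in WT, 35, 45 and 47 in NC and 20, 45 and 16 in the ESX1 group, or 0.873, 0.437 and 0.940 CPM, 3.63, 4.82 and 4.78 CPM, and 2.03, 4.53 and 2.96 CPM. All 6 transfected samples lay above all WT samples, and within the ESX1 group replicate 2 was again highest. IRF9 was 5.63-fold higher in NC than in WT, with a 95% interval of 3.03 to 10.5 (edgeR adjusted p = 0.000748). It was 4.07-fold higher in the ESX1 group than in WT, with an interval of 2.15 to 7.73 (edgeR adjusted p = 0.00224). Leaving out ESX1 replicate 2 made the log2 difference from WT 1.63 in place of 2.03 (edgeR adjusted p = 0.0162), and this still passed the 2-fold minimum.

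The IRF9 count is a part of its reads, because 48.4% of its 3794 exon bases are shared with another transcript annotated on the same strand (ENSG00000259529.1), and read pairs over both genes were not assigned. That transcript had 12, 4 and 2 counts in WT, 33, 39 and 31 in NC and 27, 26 and 10 in the ESX1 group. With both rows counted together, an alternative chosen after seeing the data, the log2 difference was 2.43 for NC against WT (edgeR adjusted p = 0.00012) and 1.92 for ESX1 against WT (edgeR adjusted p = 0.00042). Read pairs that were not assigned stay missing from this sum, so it cannot show what they would change.

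IRF1 and IRF3 did not pass the test in any comparison. IRF1, on chr5:132481609-132490798, had 21, 1 and 8 counts in WT, 23, 14 and 18 in NC and 28, 34 and 7 in the ESX1 group, and the WT samples alone ran from 0.146 to 2.29 CPM. Its log2 difference between NC and WT was 0.74 with a 95% interval of -0.51 to 1.99. WT replicates decided this value, which was 1.81 without WT replicate 1 and 0.29 without WT replicate 2 (edgeR adjusted p = 0.0609 and 0.788). For ESX1 against WT it was 1.18 (edgeR adjusted p = 0.141), and without WT replicate 1 it became 2.25 (edgeR adjusted p = 0.0137). It was 0.91 without ESX1 replicate 2 (edgeR adjusted p = 0.341). IRF1 shares 1716 of its 7799 exon bases with other genes, mainly C5orf56 on the opposite strand, which was higher in NC than in WT by 2.54 on the log2 scale (edgeR adjusted p = 0.0115) from 1, 3 and 2 to 14, 10 and 18 counts. Strand was not used in the counting, so reads of both transcripts over shared bases cannot be told apart.

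IRF3, on chr19:49659569-49665875, had 38.0, 44.2 and 44.6 CPM in WT, 46.0, 41.2 and 43.2 CPM in NC and 45.3, 31.5 and 30.3 CPM in the ESX1 group. WT and NC lay among each other, and ESX1 replicates 2 and 3 were the lowest of the 9 samples. The log2 difference of NC from WT was 0.04 with a 95% interval of -0.28 to 0.37, far from the log2 differences of IRF7 and IRF9. The log2 difference of ESX1 from WT was -0.23 (edgeR adjusted p = 0.28), and without ESX1 replicate 1 it was -0.45 (edgeR adjusted p = 0.0335). It was -0.15 without ESX1 replicate 2 (edgeR adjusted p = 0.551). Against NC the IRF3 difference was -0.28 (edgeR adjusted p = 0.418), and -0.19 without ESX1 replicate 2 (edgeR adjusted p = 0.648). IRF3 shares 19.3% of its exon bases with BCL2L12 on the opposite strand.

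IFNAR1, the receptor chain on chr21:33324477-33359862, was higher in both transfected groups. Its level was 28.9, 23.9 and 27.3 CPM in WT, 39.4, 47.2 and 36.9 CPM in NC and 41.9, 45.3 and 53.4 CPM in the ESX1 group. All 6 transfected samples exceeded all WT samples, and ESX1 replicate 2 lay between the other two of its group. IFNAR1 was 1.54-fold higher in NC than in WT (log2 0.62, SE 0.148, edgeR adjusted p = 0.008) and 1.74-fold higher in the ESX1 group than in WT (log2 0.80, SE 0.148, edgeR adjusted p = 0.000638). The second value was 0.82 without ESX1 replicate 2 (edgeR adjusted p = 0.00134). Without WT replicate 2 or NC replicate 2 the NC value was 0.55 or 0.53 and just missed the threshold (edgeR adjusted p = 0.0511 and 0.0513).

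JAK1, the kinase bound to IFNAR2, lies on chr1:64833229-64966504 and varied little. It had 98.7, 109 and 95.7 CPM in WT, 110, 117 and 122 CPM in NC and 144, 117 and 117 CPM in the ESX1 group. NC lay above WT by a narrow margin and its test did not pass (log2 0.20, edgeR adjusted p = 0.245). The ESX1 group was 1.25-fold higher than WT (log2 0.32, SE 0.116, edgeR adjusted p = 0.0481). This call was lost without any WT replicate and without ESX1 replicate 1, NC replicate 2 or NC replicate 3, with an adjusted p of up to 0.214, and held without ESX1 replicate 2 (log2 0.37, edgeR adjusted p = 0.035).

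STAT2, on chr12:56341597-56360155, was lowest in the ESX1 group, unlike IRF7 and IRF9, which were lowest in WT. Its level was 304, 288 and 263 CPM in WT, 361, 326 and 325 CPM in NC and 203, 291 and 228 CPM in the ESX1 group. NC lay above both other groups, and ESX1 replicate 2 lay within the WT range with replicates 1 and 3 below it. The NC to WT difference did not pass the test (log2 0.24, 95% interval -0.02 to 0.51, edgeR adjusted p = 0.202). The ESX1 to WT difference was -0.24 (edgeR adjusted p = 0.167), and without ESX1 replicate 2 it was -0.41 and passed (edgeR adjusted p = 0.0145).

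Of the feedback inhibitors, USP18 rose in NC and SOCS1 passed no test. USP18, on chr22:18149899-18177397, had 11.8, 11.2 and 10.8 CPM in WT, 22.7, 19.1 and 17.3 CPM in NC and 10.7, 16.6 and 10.2 CPM in the ESX1 group. NC lay above the other two groups, and in the ESX1 group replicate 2 alone exceeded WT. USP18 was 1.75-fold higher in NC than in WT (log2 0.81, SE 0.205, edgeR adjusted p = 0.0119). Without NC replicate 1 the log2 difference was 0.71 (edgeR adjusted p = 0.064). For ESX1 against WT it was 0.17 (edgeR adjusted p = 0.596), and without ESX1 replicate 2 it was -0.11 (edgeR adjusted p = 0.74). USP41, a near copy of USP18, had 0 to 6 counts in each library. Reads that match both copies alike may have been counted for neither gene, so these counts do not show how many were lost.

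SOCS1, on chr16:11254405-11256179, had 6.88, 7.87 and 8.04 CPM in WT, 9.23, 8.25 and 5.80 CPM in NC and 9.63, 5.23 and 3.51 CPM in the ESX1 group. The groups overlapped fully and the ESX1 samples spread the most. The log2 difference between NC and WT was 0.03, with a 95% interval of -0.60 to 0.66 (edgeR adjusted p = 0.958). For ESX1 against WT it was -0.27, and -0.15 without ESX1 replicate 2 (edgeR adjusted p = 0.549 and 0.787). It was -0.76 without ESX1 replicate 1 (edgeR adjusted p = 0.0749) and 0.0 without ESX1 replicate 3 (edgeR adjusted p = 0.996). Against NC the SOCS1 difference was -0.3 (edgeR adjusted p = 0.705), and -0.17 without ESX1 replicate 2 (edgeR adjusted p = 0.862). Its promoter holds the response element core shown above, the only one among the 6 members searched, which did not include IRF3, IRF7 and USP18.

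**Figure D2:**
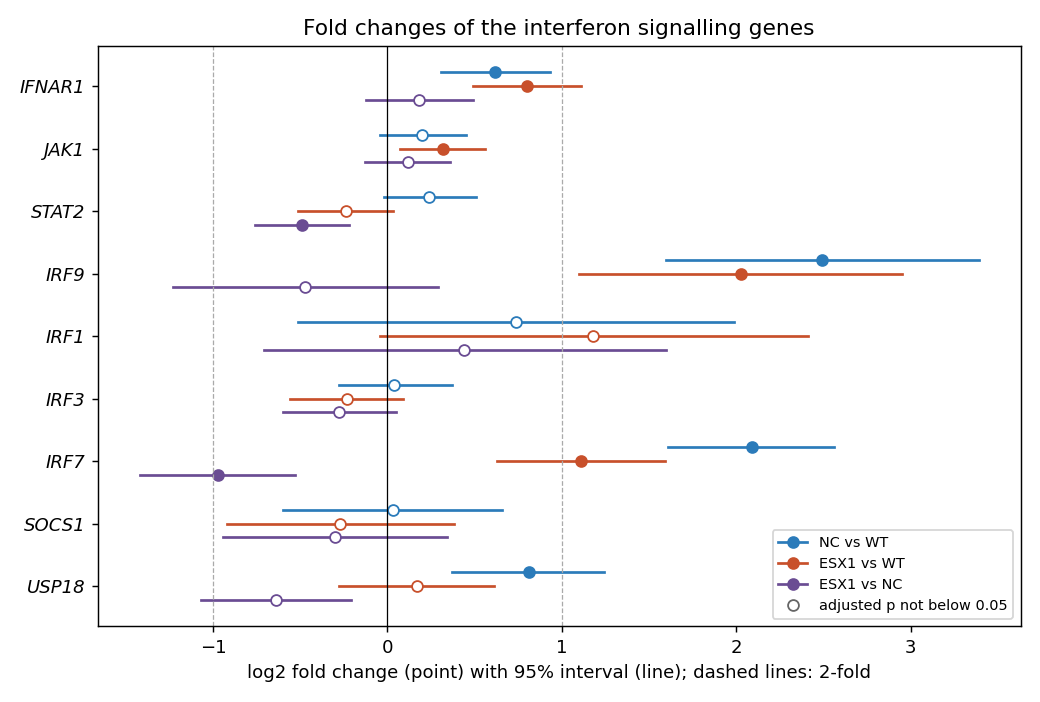
Log2 fold change (horizontal axis) of each member in NC vs WT, ESX1 vs WT and ESX1 vs NC, with the edgeR estimate as a point, its 95% interval as a line, filled points for an adjusted p below 0.05 and dashed lines at 2-fold. IRF9 and IRF7 lie to the right of 1 in both comparisons with WT, and IRF7 and STAT2 are the 2 filled points to the left of 0 in ESX1 vs NC.

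The comparison of the ESX1 group with WT holds transfection, selection, doxycycline, dCas9-VPR and ESX1 activation together. In it 4 of 9 members were higher at an adjusted p below 0.05 (IRF9, IRF7, IFNAR1 and JAK1), where 12.9% of all tested genes were. IRF9 and IRF7 passed the 2-fold minimum, where 6.78% of tested genes did. None was lower, where 15.8% of tested genes were lower and 4.77% at least 2-fold so. Only IRF9 passed the minimum without ESX1 replicate 2. The ranges lay fully above WT for 4 members, against 18.9% of tested genes. The comparison shares its WT samples with that of NC and WT, so the 2 are not independent. Values side by side, as log2 differences from WT in NC and then in the ESX1 group, were 2.09 and 1.11 for IRF7, 2.49 and 2.03 for IRF9, 0.81 and 0.17 for USP18, and 0.62 and 0.80 for IFNAR1.

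ESX1 against NC is the comparison in which both groups were transfected, and it asks what activation of ESX1 adds. If NC cells did not receive dCas9-VPR, the comparison holds that construct too, and the 2 cannot be told apart. IRF7 and STAT2 were lower in the ESX1 group at an adjusted p below 0.05, where 2.37% of tested genes were lower, and no member was higher, where 1.88% were, or 1.08% at least 2-fold so. None reached 2-fold, which 0.699% of tested genes did in the lower direction. The ranges lay fully below NC for IRF7, STAT2 and USP18, against 11.8% of tested genes.

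IRF7 fell by 0.97 on the log2 scale in the ESX1 group relative to NC (95% interval -1.42 to -0.53, edgeR adjusted p = 0.0119). STAT2 fell by 0.49 (95% interval -0.76 to -0.22, edgeR adjusted p = 0.0375). USP18 differed by -0.64 and did not pass (edgeR adjusted p = 0.0934). The lower values came mainly from ESX1 replicates 1 and 3: without replicate 2 the log2 differences were -1.37 for IRF7 (edgeR adjusted p = 0.000125), -0.65 for STAT2 (edgeR adjusted p = 0.00311) and -0.91 for USP18 (edgeR adjusted p = 0.0134). The STAT2 call was lost without any of the NC replicates, without ESX1 replicate 1 or 3 or without WT replicate 2 (adjusted p of up to 0.165), and that of IRF7 without NC replicate 1 or 3 or ESX1 replicate 3 (up to 0.0745). IFNAR1 differed between the transfected groups by 0.18 (95% interval -0.12 to 0.49) and JAK1 by 0.12 (-0.13 to 0.36), and both intervals lie within a 2-fold change. These values were 0.20 and 0.17 without ESX1 replicate 2. IRF9 differed by -0.47, with an interval of -1.23 to 0.29, which holds a 2-fold fall but not a 2-fold rise. IRF1 differed by 0.44, with an interval of -0.71 to 1.6, which holds a 2-fold rise. The IRF9 difference was -0.86 without ESX1 replicate 2 (edgeR adjusted p = 0.312) and that of IRF1 was 0.17 (edgeR adjusted p = 0.935).

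**Figure D3:**
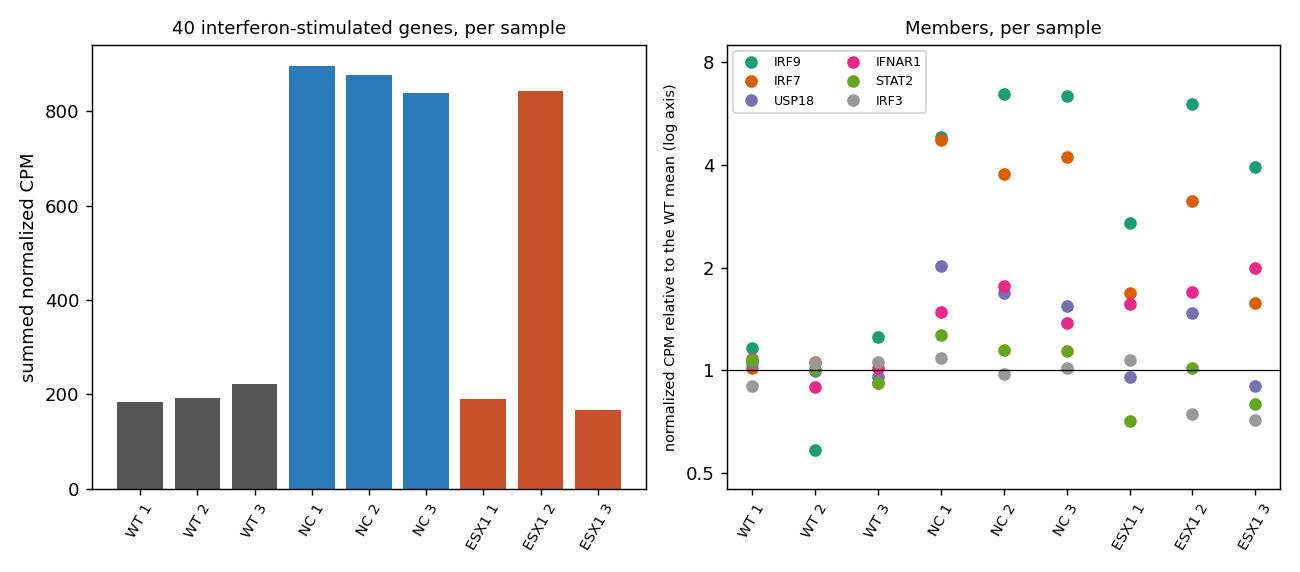
Left, summed normalized CPM (vertical axis, linear from 0) of 40 interferon-stimulated genes in each of the 9 samples; right, normalized CPM of 6 members in each sample relative to the WT mean of that gene (log axis). The bar of ESX1 replicate 2 reaches 842, beside 838 to 896 in NC, whereas ESX1 replicates 1 and 3 reach 191 and 168; IRF7 in these samples lies at 3.14, 1.69 and 1.58 times the WT mean.

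The members therefore did not all follow the library that stood apart. Relative to the WT mean, IRF7 was at 1.69, 3.14 and 1.58 in ESX1 replicates 1, 2 and 3, beside 3.77 to 4.73 in NC. IRF9 was at 2.70, 6.03 and 3.94, so replicates 1 and 3 also lay above every WT sample. Their summed interferon-stimulated genes did not, but single genes of that list such as OAS3 did, while others such as IFITM3 lay below every WT sample. USP18 was at 0.955, 1.47 and 0.902, and only replicate 2 was raised. IFNAR1 was at 1.57, 1.70 and 2.0, with no excess in replicate 2. Why replicate 2 differed was not tested, and its ESX1 count of 554 was as high as the 562 of replicate 1.

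Genes of the same pathway were read from further lists. Of 40 interferon-stimulated genes 33 were tested, and 22 were higher and at least 2-fold so in NC than in WT, as were 3.12% of all tested genes. None of the 33 was lower, where 10.3% of all tested genes were lower. The median log2 difference of the 33 was 3.05, against 0.01 over all tested genes. OAS1, an RNA-sensing synthetase, had 0 counts in every WT library and 166, 144 and 152 in NC, at least 44.6-fold higher against a floor of 3 counts in each WT library. IFI6, an inhibitor of cell death, had 2, 0 and 1 counts in WT and 544, 415 and 368 in NC, and SAMD9, an antiviral factor, 0 in every WT library and 41, 25 and 30 in NC. In ESX1 against WT 18 of the 33 were higher and 1, IFITM3, was lower, where 12.9% of all tested genes were higher and 15.8% lower. Without ESX1 replicate 2 the number of these interferon-stimulated genes at least 2-fold higher was 9 and the number lower was 3. That fit called 6.89% of all tested genes at least 2-fold higher and 5.47% at least 2-fold lower. In ESX1 against NC, where 2.37% of all tested genes were lower, only IFITM3 of the 33 passed the test. For IFITM3, a membrane protein that blocks viral entry, the log2 difference was -0.91 (edgeR adjusted p = 0.0341), and -1.36 without ESX1 replicate 2. Without ESX1 replicate 2, 23 of the 33 were at least 2-fold lower than in NC, as were 1.09% of all tested genes.

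Among the other STAT genes, STAT6, which signals for interleukin 4, had 99, 51 and 58 counts in WT, 179, 128 and 167 in NC and 238, 157 and 92 in the ESX1 group. It was higher in both transfected groups than in WT, by 1.02 in NC (edgeR adjusted p = 0.00681) and by 1.23 in the ESX1 group (edgeR adjusted p = 0.000878) on the log2 scale. Its difference from WT was 1.35 without ESX1 replicate 2 (edgeR adjusted p = 0.000712).

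Of the other receptors and kinases 7 of 8 were tested. JAK2, a kinase of the interferon gamma receptor, was higher in NC (log2 0.60, edgeR adjusted p = 0.0495), and IFNGR2, a chain of that receptor, was lower (log2 -0.65, edgeR adjusted p = 0.00628). None of the 7 passed in ESX1 against NC. Of the 5 other IRF genes, IRF4, a factor of lymphocytes, was lower in NC (log2 -0.87, edgeR adjusted p = 0.00839) from 119, 92 and 126 to 73, 64 and 70 counts.

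Among 17 other negative regulators none was higher and 2 were lower in NC than in WT, beside the 6.82% and 10.3% of all tested genes. These were SOCS4, at log2 -0.59 (edgeR adjusted p = 0.0284), and PTPN2, a phosphatase that acts on JAK1, at log2 -0.48 (edgeR adjusted p = 0.0198). In ESX1 against NC only SOCS3, an inhibitor of JAK signalling downstream of interleukin 6, passed the test. It had 444, 372 and 397 counts in NC and 705, 717 and 357 in the ESX1 group, of which the last came from the smallest library, and it was higher by 0.73 on the log2 scale (edgeR adjusted p = 0.00116), and by 0.71 without ESX1 replicate 2 (edgeR adjusted p = 0.00334).

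Upstream of IRF3 and IRF7, 3 of 11 tested sensors, adaptors and kinases were higher in NC than in WT and none was lower, where 6.82% of all tested genes were higher and 10.3% lower. IFIH1, the cytosolic sensor MDA5 of long double-stranded RNA, had 5, 4 and 5 counts in WT, 212, 231 and 221 in NC and 31, 237 and 11 in the ESX1 group. It was 41.1-fold higher in NC than in WT (log2 5.36, SE 0.749, edgeR adjusted p = 0.000158). The log2 difference of ESX1 from WT was 4.17 (edgeR adjusted p = 0.000726), and 2.26 without ESX1 replicate 2 (edgeR adjusted p = 0.000335). In NC against WT, DDX58, the sensor RIG-I, was 2.68-fold higher (edgeR adjusted p = 0.0129) and the adaptor TRAF3 was 1.54-fold higher (edgeR adjusted p = 0.019). Most of the interferon genes themselves were hardly read. Of 21 ligand genes 13 had 0 counts in all 9 libraries, which allows up to 3 counts in each, and only IFNE and IFNK had enough to be tested and neither passed. IFNK had 49, 20 and 7 counts in WT, 28, 23 and 22 in NC and 18, 31 and 3 in the ESX1 group. Its mean was 5.96, 6.11 and 3.88 TPM in these groups. IFNE had 7, 0 and 12 counts in WT, 13, 10 and 10 in NC and 7, 29 and 0 in the ESX1 group. IFNB1, an early target of IRF3, had 0 counts in all WT libraries, 0, 2 and 3 in NC and 0, 5 and 0 in the ESX1 group, the last count above 0 being that of replicate 2.

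Over all 3 comparisons IRF7 had the smallest adjusted p of the members, in NC against WT, and the genes whose pattern over the 9 samples was most like its own were sought among 18443 others. Likeness was the root mean square difference of centred log2 CPM. Among the nearest were VCAN, an extracellular matrix proteoglycan, at 0.201, TRIM25, the ubiquitin ligase of the RIG-I pathway, at 0.202, and PARP12 and DLGAP1-AS5 at 0.368 each. Of the members IRF9 was nearest to IRF7 at 0.467, followed by USP18 at 0.544, and SOCS1 was the farthest at 0.974. VCAN had 337, 221 and 236 counts in WT, 1044, 993 and 1140 in NC and 595, 784 and 255 in the ESX1 group.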

How the data were processed

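RNA from 9 TCam-2 samples (WT, NC and ESX1, n = 3 each) was sequenced by the authors as stranded, rRNA-depleted paired-end libraries. The authors aligned reads to GRCh38 with HISAT2 2.0.5, per the labels, and deposited raw counts per gene from featureCounts (1.6.5 per the labels, 1.5.2 in the file header, GENCODE 26), made without strand. They also deposited normalized log2 values, and DESeq2 is named in the submitters' processing notes. Rows of both tables were paired by order, checked over 19258 distinct count values with 0 violations. No column was left without a sample.

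From the counts, edgeR 4.0.16 (TMM, filterByExpr, quasi-likelihood test, all 9 samples in 1 fit, two-sided) gave log2 fold changes, 95% intervals and Benjamini-Hochberg adjusted p-values over 18452 genes. A gene passed below 0.05, and the stricter rule added a 2-fold minimum, after the study. CPM are TMM-normalized and TPM used exon length; TPM order genes only within a group. Alternatives used DESeq2 1.42.0, limma 3.58.1 on the log2 values, other scalings, filters and samples left out. Counts were simulated for all 9 samples and 18452 genes, with 200 genes changed in the ESX1 group. In ESX1 against NC edgeR recovered 59% of 2-fold and 86% of 4-fold changes, with 18 false calls. Simulated replicates of a group shared the same underlying level, so no library stood apart as ESX1 replicate 2 did in the interferon genes. Reads carry no molecular identifiers, so the floor of 3 counts covers counting error only. The labels give no sequencing batch. Coordinates are those of the count table on GRCh38, 1-based.

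The 9 members and the gene lists were chosen with earlier results of these data known. Beside the members, the text names from each list up to 3 tested genes with the largest change of NC against WT among those that passed, cell markers, genes sharing exons with members, the targeted gene and genes most like IRF7, of which some that the rule names are not reported here. IFITM3, SOCS3, MX1, OAS3, IFNE, IFNK and IFNB1 were named after their values were seen. The study calls the replicates biological; the separate cultures behind them are not described further, so p-values measure the spread between these samples.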

Additional observations from a re-analysis of the deposited data

How the results depend on the processing

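None of the 534 refitted log2 differences of the 9 members, over all 3 comparisons and all alternatives run, called or not, turned a call to the opposite sign: 508 kept their side of the threshold, 21 lost it and 5 gained it. The number of members at least 2-fold lower in ESX1 against NC was 0, and became 1 with the replicate number as a block (IRF7, log2 -1.02) and 2 with no minimum fold. Leaving out 1 replicate gave 0 to 1, with 1 without NC replicate 2 or ESX1 replicate 2. The number at least 2-fold higher in ESX1 against WT was 2, and became 0 with limma on the deposited log2 values, 1 with at least 10 counts in every sample, where IRF9 was no longer tested, and 4 with no minimum fold. Leaving out 1 replicate gave 1 to 3, with 3 without WT replicate 1, where IRF1 was added, and 1 without ESX1 replicate 2. The number at least 2-fold higher in NC against WT was 2, and became 1 with at least 10 counts in every sample and 4 with no minimum fold. Beyond what each setting leaves out, the cause was not tested. The block moved no other count of members. Same-numbered samples correlated at 0.193, 0.091 and 0.016 between ESX1 and NC, and at -0.03 to 0.057 against WT, and not every sample correlated best with its own number, so the numbers are not read as pairs. For interferon-stimulated genes at least 2-fold lower in ESX1 against NC the block gave 11 in place of 0. STAT2 against WT passed in NC with only the 6 samples compared (log2 0.28, edgeR adjusted p = 0.0466), JAK1 in the ESX1 group did not (edgeR adjusted p = 0.0564), and STAT2 in ESX1 against NC missed with upper-quartile factors (edgeR adjusted p = 0.0515). IRF9 and IRF1, at 47 counts or fewer per library, have the widest intervals.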
